A study of Mus musculus with 20 samples.

Results

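Chow-fed livers were described on their own, as a baseline: 10 of the 20 liver libraries of the series, all those labelled chow and numbered chow 1 to chow 10. They come from wild-type C57BL/6 mice kept on a standard laboratory chow. The study also holds 10 libraries from mice on a high-fat diet, and no comparison with them is made here. Liver was stored in liquid nitrogen and total RNA was extracted with Trizol; age, sex and the time of tissue collection are not stated. The labels do not say that each library is a separate mouse, so the spread described below may be partly technical, and no batch is labelled.

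The liver makes most of the proteins of blood plasma, stores and releases glucose and fat, makes bile acids and clears drugs. Most of its RNA comes from hepatocytes, while Kupffer cells (resident macrophages), sinusoidal endothelial cells, stellate cells and bile duct cells contribute less. Many liver genes follow feeding, the circadian clock, sex hormones and immune signals, so livers of inbred animals on a single diet need not have equal transcript levels.

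Libraries held 34727227 to 49065587 counts, of which chromosome M genes took 1.71% to 3.10%. Genes annotated as rRNA took 20.4% of the counts in chow 9 (95% Wilson interval 20.37% to 20.40%, counting error only), 0.807% in chow 8 and 0.125% to 0.257% in the other 8. Both kinds of gene were removed before scaling, which left 26735737 to 47843255 counts and 17554 to 19211 genes with a count. The libraries chow 3 and chow 5 were the most alike, with a chi-square per gene of 10.6 against 22.8 for the next pair, chow 4 and chow 8; sampling noise alone gives about 1, so none was treated as a copy of another. By chi-square per gene chow 9 stood farthest from the rest (180 to 279). By the root mean square difference of log2 levels chow 2 did (0.435 to 0.657). The main results that depend on chow 2, on chow 9 or on chow 3 with chow 5 are given with and without them. All 4 listed Y-linked genes had an average of at least 5 CPM (counts scaled to a library size of 1000000). Ddx3y, a Y-linked RNA helicase, ranged from 19.6 to 48.1 CPM. Xist, the RNA of the inactive X chromosome, had no count in any library, which allows up to 0.117 CPM in the shallowest.

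Hepatocyte transcripts dominated every library. Summed over the 8 hepatocyte markers, the level was 97463 CPM at the lowest (chow 5), 109452 CPM at the median and 150717 CPM at the highest (chow 2). Sums over the marker lists of Kupffer cells (445 to 850 CPM), sinusoidal endothelial cells (107 to 419 CPM), stellate cells (119 to 296 CPM) and bile duct cells (34.7 to 71.9 CPM) were far lower in each library. In bulk tissue, fewer cells of a type and less RNA per cell cannot be told apart.

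Make-up was measured as the share of protein-coding transcripts after dividing each count by the transcript length that the deposited values imply. Albumin (Alb, chr5:90460897-90476602, plus strand, mm10), the main plasma protein, led in all 10 libraries. Its share was 6.99% at the lowest (chow 3), 8.40% at the median and 9.92% at the highest (chow 1), with a mean of 8.31% ± 0.924 (SD, n = 10). Next came Apoa2, an apolipoprotein of high-density lipoprotein, at 2.98% ± 0.427 of the transcripts. Mup3, a major urinary protein that carries pheromones, held 2.66% ± 0.284, and Serpina1e, an alpha-1-antitrypsin, held 2.35% ± 0.402.

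Ranks 5 to 10 were also held by secreted or abundant metabolic proteins. Apoe, the apolipoprotein of remnant particles, had the narrowest relative spread of these, with a share of 2.18% ± 0.0880 (2.00% to 2.27%). The protease inhibitor Serpina3k held 2.12% ± 0.156, and Apoa1, the core protein of high-density lipoprotein, held 2.02% ± 0.258. Transthyretin (Ttr), a thyroid hormone carrier, held 1.76%, the fatty acid binding protein Fabp1 held 1.71% and the pericentral P450 enzyme Cyp2e1 held 1.63%. Scd1, a fatty acid desaturase at rank 27, showed a wide range for so abundant a transcript, from 0.24% in chow 3 to 0.86% in chow 8. Mup, Serpina1 and Hba genes have near-identical copies, so their single shares are uncertain.

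The transcript pool was concentrated in few genes. The 10 most abundant genes held 27.7% ± 1.11 of it (26.7% to 30.5%, n = 10), the 50 most abundant 48.7% and the 1000 most abundant 85.0%. Of 21884 protein-coding genes in the table, 56 were enough for 50% of the transcripts and 1724 for 90%. A count in every library was found for 12855 of these genes, and 5580 had none in any. Taken as plain count shares, which favour long transcripts, Alb held 7.54%, the iron carrier transferrin (Trf) 2.00% and Apoe 1.80%.

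**Figure D1:**
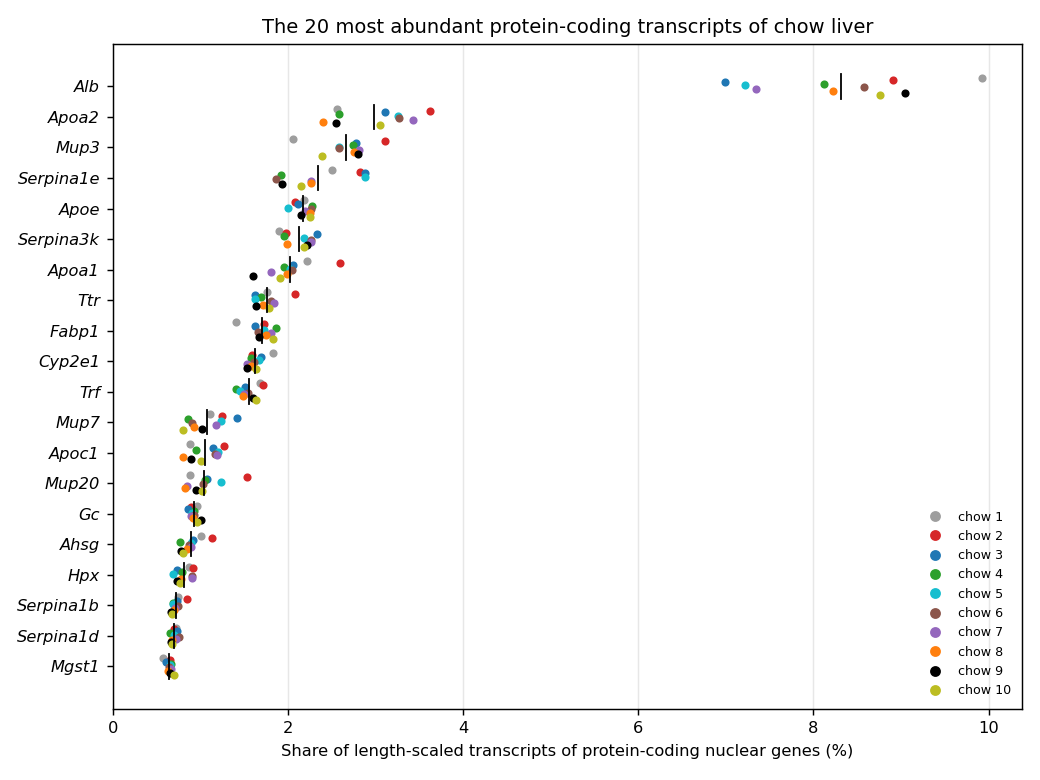
Share of the length-scaled transcripts of protein-coding nuclear genes (%, horizontal axis) for the 20 most abundant genes (vertical axis), with 1 point per library and a short vertical line at the mean of the 10 chow libraries. Alb averaged 8.31%, and Apoa2, next in order, 2.98%.

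By function, secreted plasma proteins formed the largest of the listed classes, at 18.2% ± 1.30 of the length-scaled transcripts (16.5% in chow 3 to 20.3% in chow 1). Apolipoproteins held 9.53% ± 0.732, clade A serpins 6.57% and the 22 Mup genes 5.31% ± 0.578, of which Mup3, Mup7 and Mup20 supplied most. The 99 cytochrome P450 genes, which oxidise drugs, steroids and fatty acids, together held 3.87% ± 0.201 and were led by Cyp2e1. Fatty acid binding and oxidation genes held 2.93%, coagulation genes 2.31% (the 3 fibrinogen chain genes Fga, Fgb and Fgg in front) and nuclear respiratory chain genes 1.88%.

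Smaller classes covered the liver's intermediary metabolism. Glutathione transferases held 1.54%, methionine and one-carbon genes 1.38% with the methyltransferase Gnmt in front, and complement genes 1.27% with C3 in front. Glycolysis and gluconeogenesis genes held 0.992% and urea and nitrogen genes 0.828%. Cytosolic ribosomal protein genes held 1.32%, and their share was lowest in chow 9 (1.12%) and highest in chow 2 (1.70%). The listed classes together accounted for 60.4% of the length-scaled transcripts.

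Variation between livers was measured as the biological coefficient of variation (CV): the SD over the mean of the 10 CPM values after the part due to counting was subtracted. Of all genes, 8980 averaged 5 CPM or more; their median CV was 12.9% (quartiles 9.04% to 18.6%). A CV of at least 30% was reached by 537 genes (5.98%), at least 50% by 56 (0.624%) and at least 100% by 15 (0.167%). At the other end, 2827 genes (31.5%) had a CV under 10%. The counting part was small, with a median of 3.26% and a maximum of 7.01%, so depth did not limit these values.

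Chow 2 carried much of this spread. Of the 537 variable genes, 230 (42.8%) were lowest in chow 2 and 112 were highest there, while 171 (31.8%) were highest in chow 8. Without chow 2, 280 of 9027 genes (3.1%) reached a CV of 30% and the median CV was 10.3%. Without chow 3 and chow 5, the count was 688 of 8970 (7.67%), and without chow 9 it was 613 (6.82%).

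**Figure D2:**
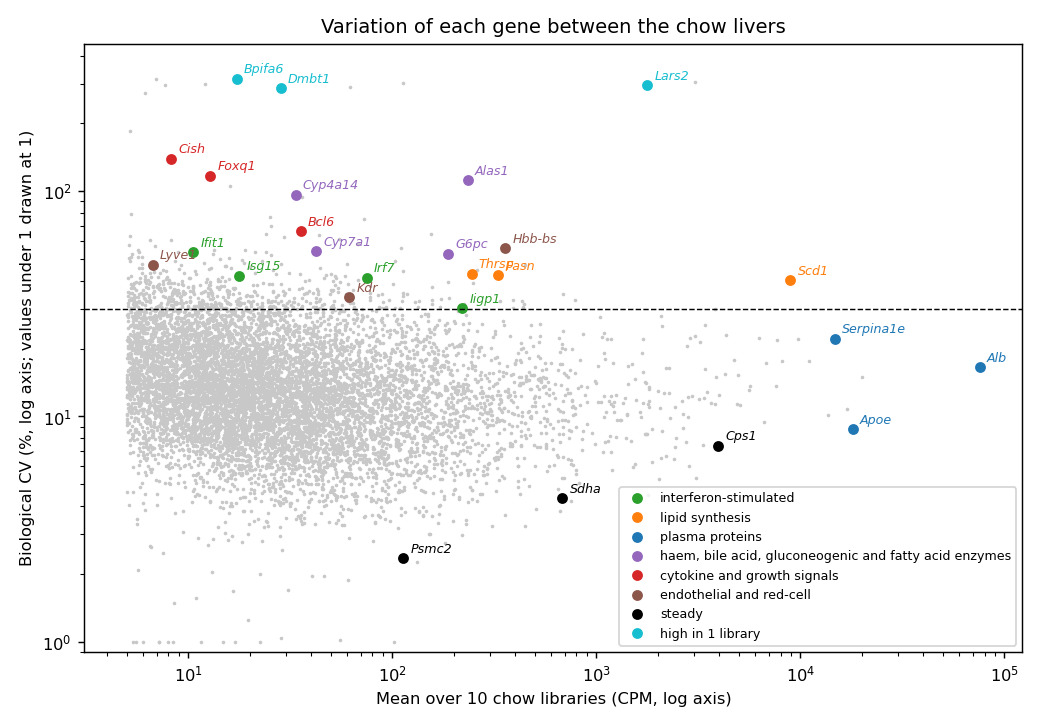
Biological CV of each of 8980 genes over the 10 chow libraries (%, log axis) against its mean level (CPM, log axis), with selected genes in colour, some of them chosen for their CV. Genes at 5 to 10 CPM reached a CV of 30% in 10.6% of cases and genes of at least 1000 CPM in 2.29%. The interferon-stimulated genes in colour, Isg15, Irf7, Ifit1 and Iigp1, lie above most genes of their level. They are among the 13 of 19 measured list members that reached a CV of 30%.

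The first principal component of log2 CPM held 45.8% of the variance between chow libraries and set chow 2 (score 40.9) and chow 6 (12.0) against chow 8 (-20.0) and chow 4 (-14.5). It followed transcript length: across the 8980 genes, which are not independent replicates, its loading had a Spearman rho of -0.56 with log length. In chow 2, genes under 1 kb had a median log2 deviation of 0.47 from the 10-library mean, and genes of 8 kb or more one of -0.34. In chow 8 these were -0.17 and 0.16. The second component held 14.1% and placed chow 9 (19.4) opposite chow 3 (-13.2) and chow 5 (-14.1). Its largest positive loadings were those of Gm24270, Gm23935, Mir6236 and Lars2. These genes were at least 10 times higher in chow 9, the library rich in rRNA counts, than in any other. Alas1 and Cish had its largest negative loadings.

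**Figure D3:**
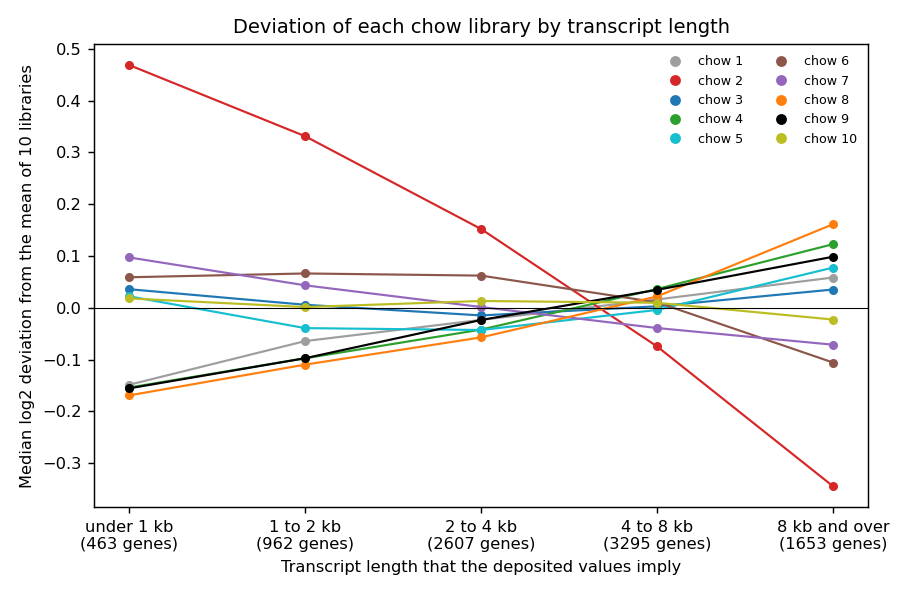
Median log2 deviation of each chow library from the mean of the 10 libraries (vertical axis) in 5 classes of transcript length (horizontal axis), with 1 line per library. The line of chow 2 falls with length, with medians of 0.47, 0.33, 0.15, -0.07 and -0.34, while chow 8 runs the other way.

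Variable genes were correspondingly frequent at both ends of the length range, at 18.6% of the 463 genes under 1 kb and 9.5% of the 1653 genes of at least 8 kb. Clustering the 537 variable genes by correlation gave 8 groups of at least 10 genes, which held 448 of them. Since these groups were formed from the same values, their patterns are descriptions and carry no test.

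The 179 genes of the first group were long, with a median length of 8862 bases against 4382 over all measured genes. They were low in chow 2 and chow 6 and high in chow 8 and chow 4, with group means of -0.85, -0.62, 0.66 and 0.51 on the log2 scale. Acbd5, which tethers peroxisomes to the endoplasmic reticulum, stood closest to the group mean, at 83.0 CPM in chow 2, a median of 150 CPM and 231 CPM in chow 8. Apc, the Wnt pathway scaffold, ranged from 5.64 to 21.7 CPM in the same libraries. The second group was its mirror image: 97 genes with a median length of 810 bases, of which 19 encode cytosolic ribosomal proteins (of 58 measured), together with small respiratory chain subunits such as Atp5e and Ndufa2. The group mean was 0.87 in chow 2 and -0.58 in chow 8. Rpl26, a protein of the large ribosomal subunit, had 69.3 CPM in chow 8, 102 CPM at the median and 247 CPM in chow 2, and its CV of 44.2% became 19.7% without chow 2.

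**Figure D4:**
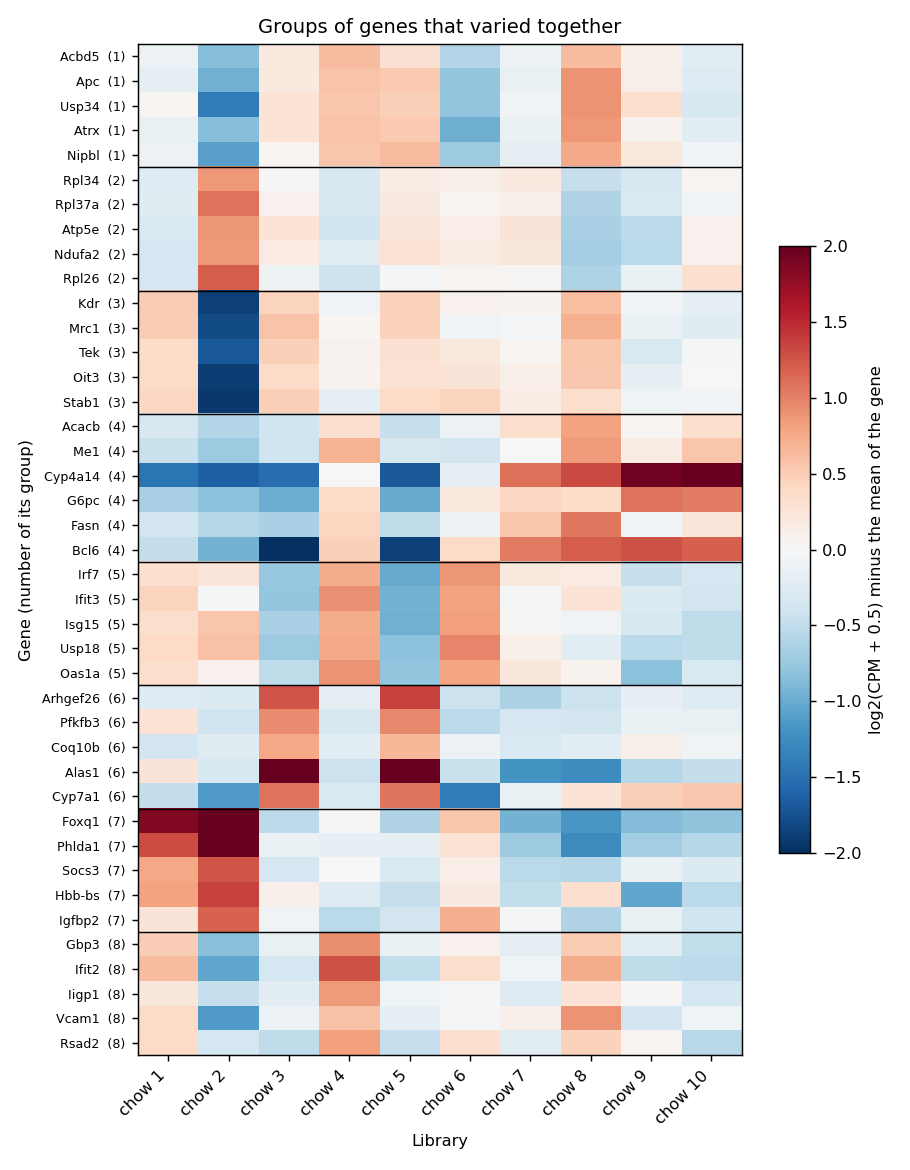
Deviation of log2(CPM + 0.5) from the gene's mean (colour, red higher and blue lower) for selected genes of the 8 groups (vertical axis, group number in brackets) in each chow library (horizontal axis). Chow 2 is blue across group 3, chow 3 and chow 5 are red across group 6, and chow 1 and chow 2 are red across group 7.

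Interferon-stimulated genes were the list with the largest number of variable members. Interferons are signals released on contact with viruses or microbial products, and they act on short promoter elements of antiviral genes. Of the 19 measured members, 13 reached a CV of 30%, with a median CV of 41.1%; over all measured genes 5.98% reached it and the median CV was 12.9%. Without chow 2 the count was 12 of 19, and without chow 3 and chow 5 it was 13 of 19 with a median of 33.6%.

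Promoter stretches of 5 of these genes are shown because they carry the letters of the interferon-stimulated response element. Each runs 5′ to 3′ over the 130 bases before the first listed start of the gene in RefSeq (GRCm38.p6), and capitals mark matches of the letters GAAA, 2 bases of any kind and GAAA again, on either strand; neighbouring matches can overlap, and no other motif was searched. Isg15 lies on the minus strand at chr4:156200819-156200948, Ifit1 on the plus strand at chr19:34640759-34640888, Oas1a on the minus strand at chr5:120907526-120907655, Gbp3 on the plus strand at chr3:142559914-142560043 and Igtp on the plus strand at chr11:58199426-58199555.
Isg15: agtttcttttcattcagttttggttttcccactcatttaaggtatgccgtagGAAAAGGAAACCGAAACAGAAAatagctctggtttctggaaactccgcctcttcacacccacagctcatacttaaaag
Ifit1: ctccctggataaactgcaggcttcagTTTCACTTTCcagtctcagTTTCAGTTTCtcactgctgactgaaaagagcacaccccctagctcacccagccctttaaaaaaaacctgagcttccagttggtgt
Oas1a: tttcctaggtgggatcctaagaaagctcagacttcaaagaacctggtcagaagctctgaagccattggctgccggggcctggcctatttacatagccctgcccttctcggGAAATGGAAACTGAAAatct
Gbp3: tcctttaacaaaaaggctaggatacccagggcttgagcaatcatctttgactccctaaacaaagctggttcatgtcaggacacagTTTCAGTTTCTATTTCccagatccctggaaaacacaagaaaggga
Igtp: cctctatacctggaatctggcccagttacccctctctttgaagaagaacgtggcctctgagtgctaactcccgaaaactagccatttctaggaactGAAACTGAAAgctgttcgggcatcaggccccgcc

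Within 250 bases before the start, this motif was found in 11 of the 15 list members present in the promoter table (73.3%), against 821 of all 27025 genes of that table (3.04%) and 177 of 6857 measured genes (2.58%). In Isg15 3 matches start 78, 72 and 66 bases before the gene. A match describes the letters only, and binding was not measured. Usp18, Iigp1 and Ifi27l2a were not matched to the table.

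Of the 19 measured list members, 13 fell into a pair of groups, both of them high in chow 4. The fifth group held 25 genes, 10 of them on the list, and was high in chow 4 (0.73), chow 6 (0.73) and chow 1 (0.43) and low in chow 5 (-0.77) and chow 3 (-0.68). The GAAA motif was found in 9 of its 15 genes in the table (60.0%). Irf7, the transcription factor that amplifies interferon production, had 34.3 CPM in chow 5, 78.8 CPM at the median and 129 CPM in chow 6, with a CV of 41.4%. Isg15, a ubiquitin-like modifier, had 8.12 CPM in chow 5, 16.1 CPM at the median and 29.4 CPM in chow 6. Ifit1, which binds viral RNA, had 5.12 CPM in chow 5, 9.18 CPM at the median and 23.9 CPM in chow 4. The 3 genes were thus lowest in the same library, and their CVs stayed at or above 36.7% whichever library was left out.

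The eighth group held 12 genes that were high in chow 4 (0.85) and chow 8 (0.61) and low in chow 2 (-0.70), and the GAAA motif was found in 7 of the 9 in the table (77.8%). It held guanylate-binding Gbp3, the antiviral enzyme Rsad2, Ifit2, the immunity-related GTPase Iigp1 and the adhesion molecule Vcam1. Iigp1 was the most abundant of these, at 154 CPM in chow 2, 205 CPM at the median and 383 CPM in chow 4. Its CV of 30.2% rested on chow 4 and was 17.7% without it. Of the list members that did not reach 30%, Bst2, which tethers viruses to the membrane, had a CV of 24.5% and was highest in chow 2.

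Endothelial transcripts were low in chow 2. The summed sinusoidal endothelial markers had 107 CPM there, a median of 355 CPM and a maximum of 419 CPM in chow 8. Kdr, the main receptor for vascular endothelial growth factor, had 15.2 CPM in chow 2 and 49.6 to 86.2 CPM in the other 9 libraries. Stab1, a scavenger receptor of sinusoidal endothelium, had 7.58 CPM in chow 2 and 26.6 to 42.2 CPM in the others. These genes sat in the third group of 64 genes, whose mean was -1.52 in chow 2 and which also held the angiopoietin receptor Tek, the mannose receptor Mrc1 and the hyaluronan receptor Lyve1.

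With chow 2 in, 4 of 8 sinusoidal endothelial markers reached a CV of 30%, against 5.98% of all measured genes. Without it 1 of 8 did, against 3.1% of all measured genes. The medians of these markers were 29.6% with chow 2 and 16.2% without. The CV of Kdr was 33.8% with chow 2 and 20.6% without, and that of Oit3, an endothelial secreted protein, 30.9% and 15%. Stellate and Kupffer cell markers were also lowest in chow 2: their sums were 119 and 445 CPM there, against medians of 260 and 637 CPM. Dcn, a proteoglycan of stellate cells, had 60.1 CPM in chow 2, 143 CPM at the median and 173 CPM in chow 8. Clec4f, a Kupffer cell lectin, had 126 CPM in chow 2, 182 CPM at the median and 252 CPM in chow 6. Marco, a macrophage scavenger receptor, was the only Kupffer marker with a CV of at least 30% (52.0%), and ranged from 4.30 CPM in chow 9 to 21.2 CPM in chow 1. In chow 2, low values of these markers went with the highest hepatocyte marker sum and with high values of short transcripts; their part in the result was not tested.

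Globin transcripts, the mark of red blood cells in tissue, varied widely. Hbb-bs, an adult beta-globin, had 155 CPM in chow 9, 304 CPM at the median and 823 CPM in chow 2, and its CV was 55.9% over 10 libraries and 40% without chow 2. Hba-a1, an alpha-globin, had 69.1 CPM in chow 9, 131 CPM at the median and 393 CPM in chow 2. Alas2, the heme enzyme of erythroid cells on the same list, did not share this range, with 174 to 215 CPM and a CV of 7.86%.

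Several genes of fat synthesis varied between the chow livers. Of 19 measured lipogenesis genes, 7 reached a CV of 30% (median 22.4%), against 5.98% of all measured genes (median 12.9%). The count was 7 without chow 2 and 6 without chow 3 and chow 5. Fasn, the fatty acid synthase, had 197 CPM in chow 3, 290 CPM at the median and 641 CPM in chow 8, with a CV of 42.4%. Thrsp, a promoter of lipogenesis, had 125 CPM in chow 1, 229 CPM at the median and 455 CPM in chow 8. Me1, the malic enzyme that supplies reducing power, ranged from 106 CPM in chow 2 to 315 CPM in chow 8. The upstream regulator Srebf1 varied less, with a CV of 16.8%.

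The fourth group of 37 genes held 4 of the 19 lipogenesis genes (Fasn, Acacb, Me1 and Thrsp), 3 of 13 PPARA targets (Cyp4a10, Cyp4a14 and Acot1, the first 2 being P450 enzymes of fatty acid omega-oxidation) and, of 14 fasting and gluconeogenesis genes, glucose 6-phosphatase (G6pc) alone. Its mean was negative in chow 1, 2, 3 and 5 (-0.45, -0.86, -0.50 and -0.39) and positive in chow 4, 7, 8, 9 and 10 (0.44, 0.25, 0.56, 0.40 and 0.53). Cyp4a14 had the widest range of the group. It had 6.13 to 7.24 CPM in chow 1, 2, 3 and 5, 18.2 and 20.5 CPM in chow 6 and chow 4, and 45 to 91 CPM in chow 7 to 10, with a CV of 96.3%. G6pc, which releases free glucose, had 82.1 CPM in chow 5, 201 CPM at the median and 351 CPM in chow 9. Bcl6, a transcriptional repressor, had 4.96 CPM in chow 3, 35.6 CPM at the median and 64.1 CPM in chow 9. The libraries low in Cyp4a14 were also the 4 lowest in G6pc and Bcl6.

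Cish, a feedback inhibitor of growth hormone and cytokine signalling, was high where Bcl6 was low. It had 24.4, 33.1, 10.5 and 8.14 CPM in chow 1, 2, 3 and 5 and 0.687 to 1.52 CPM in the other 6, so the libraries fell into clusters with no value in between, and no pooled correlation is given. Its CV of 140% was the largest among the genes described here that are not single-library genes. Socs2, another inhibitor induced by growth hormone, ranged from 2.62 CPM in chow 6 to 20.4 CPM in chow 5. Arid5b, a chromatin regulator, had 15.1 CPM in chow 7, 23.5 CPM at the median and 104 CPM in chow 1. Cish, Socs2, Bcl6 and Arid5b are set side by side after their values were seen.

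A seventh group of 15 genes was high in chow 2 (1.23) and chow 1 (0.71). Foxq1, a forkhead transcription factor, had 3.46 CPM in chow 8, 5.51 CPM at the median, 31.6 CPM in chow 1 and 48.3 CPM in chow 2, with a CV of 117%. Phlda1, a pleckstrin-homology-like protein, had 11.1 CPM in chow 8, 24.6 CPM at the median and 122 CPM in chow 2. Socs3, a feedback inhibitor of interleukin 6 signalling, ranged from 3.37 CPM in chow 8 to 13.2 CPM in chow 2. Igfbp2, a circulating binding protein for insulin-like growth factors, ranged from 272 CPM in chow 8 to 931 CPM in chow 2. Globin genes were members of this group as well. Egr1, an immediate early gene, was also high in chow 1, with 6.56 CPM in chow 3, 20.2 CPM at the median and 54.6 CPM in chow 1. In the immediate early list as a whole, 3 of 10 measured members reached a CV of 30%, against 5.98% of all measured genes. The count was 2 of 10 without chow 2 (3.1% of all measured genes) and 2 of 10 without chow 9 (6.82%). Without chow 3 and chow 5 it was 3 of 10 (7.67%).

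Chow 3 and chow 5 shared a set of high genes. The sixth group of 19 genes had means of 0.91 and 0.92 in these libraries and below 0 in all the others, down to -0.51. Alas1, the rate-limiting enzyme of heme synthesis in the liver, had 758 CPM in chow 3, 698 CPM in chow 5 and 64.9 to 186 CPM in the other 8. Its CV was 112% over 10 libraries and 33.8% without chow 3 and chow 5. Cyp7a1, which catalyses the first step of the main bile acid pathway, had 78.3 CPM in chow 3, 77.8 CPM in chow 5 and 13.5 to 53.5 CPM in the others, with CVs of 54.2% and 44.9%. Arhgef26, a guanine nucleotide exchange factor, had the sharpest contrast, with CVs of 64.3% and 10.2%. Coq10b, of coenzyme Q metabolism, had 54.3 CPM in chow 3, 50.6 CPM in chow 5 and a median of 28.3 CPM. Igfbp1, an insulin-repressed binding protein, was in contrast lowest in chow 5 and chow 3 (4.03 and 6.42 CPM) and ranged up to 36.1 CPM in chow 6.

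Clock genes differed in how much they varied. Of 13 measured core clock genes, 2 reached a CV of 30%, Rora (35.5%) and Per1 (30.7%), against 5.98% of all measured genes, and the list median of 17.9% lay above the 12.9% of all measured genes. The count was 1 of 13 without chow 2 (3.1% of all measured genes) and 4 of 13 without chow 3 and chow 5 (7.67%). Nr1d1, the REV-ERB alpha repressor, had 86.2 to 120 CPM and a CV of 10.8%, and its partner in repression Nr1d2 a CV of 27.0%. Dbp, a clock output transcription factor, had 55.5 CPM in chow 1, 63.5 CPM at the median and 81.8 CPM in chow 3. Arntl, the BMAL1 activator, fell under the 5 CPM floor, with 1.34 CPM in chow 3, 3.28 CPM at the median and 4.24 CPM in chow 1. Chow 3 and chow 5 had the lowest Arntl and the highest Dbp.

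Acute phase genes, which the liver raises in inflammation, had 6 of 20 members with a CV of 30% (median 17.3%), against 5.98% of all measured genes (median 12.9%). Saa1, serum amyloid A, had 57.3 CPM in chow 5, 90.7 CPM at the median and 223 CPM in chow 7, and its CV of 49.0% was 32.6% without chow 7. Lcn2, an iron-siderophore binding protein, had 2.28 CPM in chow 5, 5.18 CPM at the median and 15.7 CPM in chow 7. The acute phase genes of largest transcript share moved less than Saa1: Hpx, Hp and Fga had CVs of 17.8%, 16.3% and 13.7%. Orm1 had a CV of 23.2%. Hamp, the iron hormone hepcidin, ranged from 237 CPM in chow 8 to 598 CPM in chow 10 with a CV of 33.0%.

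Of 24 cholesterol synthesis genes, 2 reached a CV of 30%, against 5.98% of all measured genes, and their median CV was 16.7%. Hmgcs1, the first enzyme committed to the pathway, had 205 CPM in chow 6, 408 CPM at the median and 731 CPM in chow 8. Idi1, an isoprenoid isomerase, had 26.0 CPM in chow 6 and 85.0 CPM in chow 8. Angptl4, an inhibitor of lipoprotein lipase, ran the other way, with 112 CPM in chow 6 and 42.5 CPM in chow 8. Of 13 PPARA targets 3 reached a CV of 30%, namely Cyp4a14, Cyp4a10 and Acot1.

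The counts of the zonation, stress and sex-biased lists are read against 5.98% of all measured genes. None of 16 periportal genes and 1 of 15 pericentral genes reached a CV of 30%, and Cps1, the entry enzyme of the urea cycle, had a CV of 7.43%. None of 11 heat shock genes and none of 5 measured MHC class II genes reached it, and the MHC class II median was 16.6%. In the unfolded protein and integrated stress list 3 of 17 did, among them asparagine synthetase (Asns, 35.9%) and Trib3 (30.9%). Of 14 bile acid genes Cyp7a1 alone reached it, whereas Baat, which conjugates bile acids, had a CV of 4.68%. Of 23 male-biased genes 4 did, among them Moxd1, a monooxygenase-like protein, with 4.06 CPM in chow 6, 50.5 CPM at the median and 102 CPM in chow 2. Mup20 had 2734 CPM in chow 8, 3609 CPM at the median and 6814 CPM in chow 2, and its CV of 29.9% was 13.6% without chow 2. Among the remaining lists, against the same 5.98%, a CV of 30% was reached by 2 of 14 fasting and gluconeogenesis genes, 3 of 15 clock output genes, 2 of 16 drug metabolism genes, 2 of 11 iron genes, 3 of 11 fibrosis genes, 4 of 10 metallothionein and glucocorticoid genes, 1 of 2 female-biased genes and none of 4 cell cycle genes. The metallothionein and glucocorticoid count was 2 of 10 without chow 2 and without chow 9, and 4 of 10 without chow 3 and chow 5. The fibrosis count was 2 of 11 without chow 2, 4 of 11 without chow 9 and 3 of 10 without chow 3 and chow 5. Over all measured genes the shares were 3.1% without chow 2, 6.82% without chow 9 and 7.67% without chow 3 and chow 5.

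Correlation across the 10 libraries was computed for 33 listed gene pairs with both genes at 1 CPM or more, on log2(CPM + 0.5). In 16 pairs the adjusted p of a two-sided permutation test was under 0.05, 15 of them positive, and 14 pairs passed by Spearman rho. In 9 of the 16 the call held whichever library was left out. In 11 the permutation p before adjustment was under 0.05 without the 2 libraries farthest from the median of the first gene. After adjustment fewer pairs passed there.

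The globins Hba-a1 and Hbb-bs had the highest correlation, with a Pearson r of 0.98 (adjusted permutation p 0.00033). Before adjustment, their permutation p was the smallest that 100000 resamples can give. Their rho was 0.94 (adjusted permutation p 0.00363), and their r was 0.97 without the 2 farthest libraries. The collagens Col1a1 and Col3a1 had an r of 0.95 (adjusted permutation p 0.00319; rho 0.94) and 0.92 without the 2 farthest. Arntl and Dbp, whose products act in opposite phases of the clock, were the only negative pair among the 16 that passed, with an r of -0.88 (adjusted permutation p 0.00148; rho -0.89) and -0.74 without chow 3 and chow 5. Cyp4a14 and Cyp4a10 had an r of 0.88 (adjusted permutation p 0.00323; rho 0.93) and 0.81 without the 2 farthest.

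Pairs of metabolic enzymes followed. Glul and Cyp2e1, both pericentral, had an r of 0.85 (adjusted permutation p 0.00689; rho 0.92) and 0.85 without the 2 farthest libraries. Fasn and Scd1 had an r of 0.79 (adjusted permutation p 0.0185, rho 0.79) and 0.94 without the 2 farthest. With single libraries left out, however, the lowest r was 0.71 (without chow 8). The largest adjusted permutation p was then 0.0744, so this call did not hold in every such set. Hmgcs1 and Sqle, of cholesterol synthesis, had an r of 0.86 (adjusted permutation p 0.00448; rho 0.78) and 0.72 without the 2 farthest. Igfbp1 and Pck1, both repressed by insulin, had an r of 0.90 (adjusted permutation p 0.00323; rho 0.92), but an r of 0.68 and a permutation p of 0.0501 without the 2 farthest libraries, so this relation rests partly on them. The same held for Hspa1b and Hspa8, heat shock proteins (r 0.82, adjusted permutation p 0.0121, and 0.47 without the 2 farthest), and for Fasn and Elovl6, a fatty acid elongase (r 0.76, adjusted permutation p 0.0212, and 0.48 without the 2 farthest).

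Immune pairs gave similar values. Ifit1 and Isg15 had an r of 0.82 (adjusted permutation p 0.0123; rho 0.83) and 0.72 without the 2 farthest libraries. Cd74 and H2-Ab1, of antigen presentation, had an r of 0.86 (adjusted permutation p 0.00448; rho 0.79), but an r of 0.71 and a permutation p of 0.0551 without the 2 farthest libraries, so this relation too rests partly on them. Saa2 and Orm2, of the acute phase, had an r of 0.68 that did not pass (adjusted permutation p 0.0585), although the rho of 0.81 did (adjusted permutation p 0.0249). Among the pairs that did not pass, Cyp7a1 and Cyp8b1 of bile acid synthesis had an r of 0.16; with 10 libraries a modest relation could be missed.

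**Figure D5:**
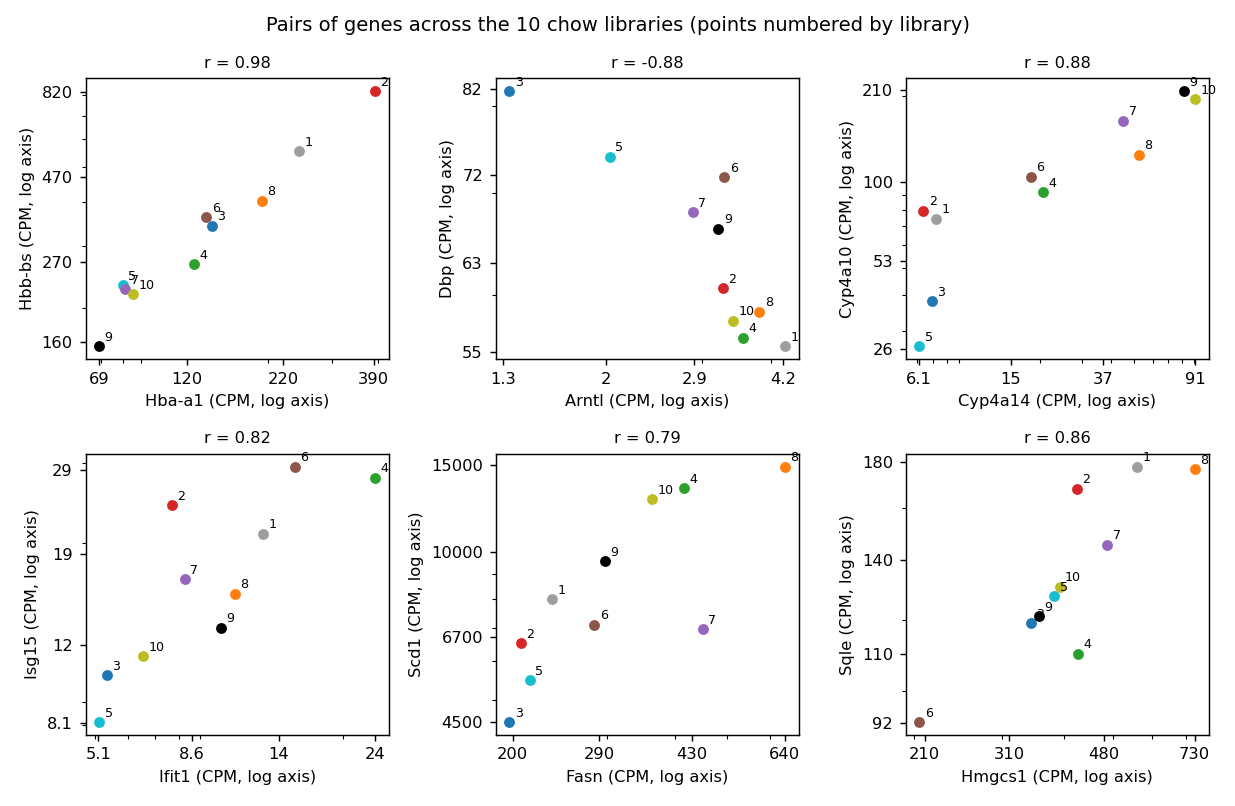
Levels of both genes of 6 pairs (CPM, log axes), 1 numbered point per chow library. Hba-a1 and Hbb-bs lie nearly on a line (r = 0.98), whereas Arntl and Dbp run in opposite directions (r = -0.88) with chow 3 and chow 5 at the end of low Arntl.

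For chosen genes, the genes most like them were sought by Pearson r of log2 CPM over the same 10 libraries among all 8980 measured genes; so large a search yields high values, and they are descriptions without a test. Fasn was most like Acacb, an acetyl-CoA carboxylase (r 0.98), Pdk1 (0.94) and Gpam, of triglyceride synthesis (0.93). Hmgcs1 was most like Ppp1r7 (0.94), followed by the sterol enzymes Sc5d (0.92) and Lss (0.92), and least like Angptl4 (-0.97). Ifit1 was most like Parp9 (0.97) and Ifit3 (0.95), both induced by interferon. Dbp was most like Trim41 (0.89) and the serine dehydratase Sds (0.88), and Tef, a factor of the same family, had 0.82. Igfbp1 was most like N4bp2l1, Wdr81 and the clock repressor Cry2, in that order (0.96 each). Alb was most like the fibrinogen chain Fgb (0.96), and Cyp4a14 most like G6pc (0.96).

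At the steady end, 10 genes had no variance beyond counting, so their biological CV was 0: Harbi1, Trim65, Ttf2, E2f4, Castor2, Isy1, Sike1, Zfp64, Dnase1l1 and Rbks. Psmd12, a subunit of the proteasome cap, had 100 CPM in chow 4, 102 CPM at the median and 106 CPM in chow 3, with a CV of 0.624%, little more than counting gives. Mta2, a chromatin remodelling subunit, had 53.6 to 57.2 CPM and a CV of 1.02%, and Rab35, a vesicle GTPase, one of 1.3%. Among genes of at least 100 CPM, a level chosen after the values were seen, Rac1, Psmc2, Rab7 and Cdc42 had CVs of 2.3% to 3.0%. Of 15 measured genes often used as internal references none reached 30%, against 5.98% of all measured genes, and their median CV of 14.4% was above the 12.9% of all measured genes. Sdha, a respiratory chain subunit, had a CV of 4.35%, Hprt of purine salvage 6.85% and Actb, beta-actin, 17%, the last being 9.04% without chow 2.

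Some genes were high in 1 library only, at least 10 times above every other and at 1 CPM or more: 26 genes in chow 4, 9 in chow 5, 14 in chow 7, 11 in chow 9 and none in the other 6 libraries. They were named after their values were seen. In chow 4 they were led by the lipid-binding protein gene Bpifa6 (172 CPM there and at most 0.0553 CPM elsewhere), the desaturase Scd3 (69.1 and at most 0.111 CPM) the gene BC048679 (34.8 and at most 0.0438 CPM) and the ceramide synthase Cers4 (32.2 and at most 3.08 CPM), with Sptlc3, Far2, Mboat2 and Dgat2l6 also of lipid synthesis. In chow 5 they included the skeletal muscle genes Acta1 (7.66 and at most 0.527 CPM), Tnnt3, Mb, Myh1 and Myh2, and the summed skeletal muscle markers were 23.0 CPM there against a median of 1.02 CPM. Ighm, the immunoglobulin mu chain, was also high in chow 5, at 62.2 CPM and at most 20.1 CPM elsewhere.

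In chow 7 the single-library genes were led by Dmbt1, a mucosal scavenger receptor (259 CPM and at most 21.8 CPM elsewhere), and included lactotransferrin (Ltf, 11.6 and at most 0.553 CPM), Gabrp, Olfm4 and the oxidase Duox2. Summed bile duct markers were highest there as well (71.9 CPM, median 37.8 CPM), as were those of smooth muscle (31.8 CPM, median 11 CPM) and mesothelium (15.9 CPM, median 4.48 CPM). In chow 9 the leading ones were Gm23935 (29588 CPM and at most 465 CPM elsewhere) and Lars2, the mitochondrial leucyl-tRNA synthetase gene (16763 and at most 388 CPM), in the library with 20.4% rRNA counts. The part of other tissue or of rRNA in these values was not tested.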

How the data were processed

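For total liver RNA, the authors deposited gene counts and, in a second table, FPKM (values per transcript length and library total); per the submitters' processing notes, reads were cleaned with fastp and the genome build was mm10. Not given in the sources used here were the aligner, counting program, annotation and strand setting, so near-identical, overlapping and antisense genes are uncertain. For 27216 genes, the deposited FPKM equals the count scaled by library total and 1 length per gene (relative tolerance 1e-06), and that length was used for shares. GENCODE M21 (GRCm38, the assembly of mm10) supplied names and positions for 55141 of 55401 gene IDs; at most 0.00813% of a library fell to the other 260. No column lacked a sample.

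Counts of chow libraries, without chromosome M and rRNA genes, were scaled to CPM with edgeR 4.0.16 TMM factors (0.878 to 1.06) in R 4.3.3; the rest was done in Python 3.11.15. Genes of at least 5 CPM on average were measured, a biological CV of 30% was the threshold, and correlations used log2(CPM + 0.5) with 100000 two-sided permutation resamples and Benjamini-Hochberg adjustment over 33 pairs. Variable genes were clustered by average linkage of correlation, cut at a distance of 0.4. Scripts were tested on simulated data. Replicate number was the label's own and sets no order.

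Members, gene lists and pairs were chosen with earlier results of these data known. Named genes are those of largest share, of largest and smallest CV, list members of highest CV or level, genes of the listed pairs, nearest genes of chosen anchors and genes closest to group means; others are said to be named after their values were seen, as are the alternatives leaving out chow 2 with chow 9, chow 3 with chow 5, or single-library genes. Some genes and pairs are not reported here.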

Additional observations from a re-analysis of the deposited data

Results flagged for a closer look

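Of 149 values tested over the 10 chow libraries (116 genes plus class shares and marker sums), 33 had 1 library apart from the rest, as judged by the gap to the nearest library divided by the whole range. Chance gives this in about 1 of 20 groups, but many of these genes were named for a large CV or as high in 1 library only. The 33 can therefore not be set against that rate. Many of the 33 share a library, and 25 of them are genes. The number after each item is that gap over the range.

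Chow 2 was apart and high for Mup20 (0.642), Rpl26 (0.637), Actb (0.565), B2m (0.495), Phlda1 (0.478) and the pancreatic acinar marker sum (0.523). It was apart and low for the endothelial genes Pecam1 (0.562), Clec4g (0.550), Stab1 (0.549), Fcgr2b (0.533), Oit3 (0.526) and Kdr (0.485), the summed sinusoidal endothelial markers (0.575) and the summed dendritic cell markers (0.491).

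Chow 4 was apart and high for Bpifa6 (1.00), Scd3 (0.998), Cers4 (0.930) and Iigp1 (0.540). Chow 5 was apart and high for Acta1 (0.931), Ighm (0.740), the skeletal muscle marker sum (0.873) and the B and plasma cell marker sum (0.682). Chow 7 was apart and high for Ltf (0.952), Dmbt1 (0.916), Saa1 (0.472) and the bile duct marker sum (0.807). Chow 9 was apart and high for Gm23935 (0.986), Lars2 (0.979) and the rRNA share (0.966). Chow 8 was apart and high for Elovl6 (0.527) and Lyve1 (0.476), chow 6 for Angptl4 (0.474) and chow 1 for the coagulation share (0.512).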

How the results depend on the processing

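No paired analysis was possible because there is 1 group and no contrast between groups. The number of genes with a CV of 30% (537) was 1287 with a floor of 1 CPM, 198 with 20 CPM, 6739 with no floor, 331 without chow 2 and chow 9 (289 of them shared) and 56 at a CV of 50%; leaving out 1 library gave 280 (without chow 2) to 634. List members past it (59) were 33 with a floor of 20 CPM, 102 with none and 12 at a CV of 50%, and 52 to 64 without 1 library. Gene groups (8) were 24 with a floor of 1 CPM, 205 with none and 1 at a CV of 50%, and 6 to 10 without 1 library. The share of the 10 leading genes (27.7%) was 19.7% by count and 27.4% to 27.8% without 1 library. The listed classes (60.4%) held 46.5% by count, 52.0% of all nuclear genes and 49.4% with chromosome M and rRNA in, and 60.0% to 60.6% without 1 library. Pairs that passed (16) were 5 without the 2 farthest libraries, where fewer samples were tested, 10 without chow 2 and chow 9, and 12 to 16 without 1 library. The first component (45.8%) held 39.6% over the 500 most variable genes, 37.0% without chow 2 and chow 9, and 31.1% (without chow 2) to 51.0% without 1 library. Some pairs that had not passed changed sign. Nr1d1 with Dbp (r -0.048 over 10 libraries) was 0.224 on library totals and -0.203 to 0.0792 without 1 library. Cyp2f2 with Cyp2e1 (r 0.39) was -0.0981 on totals. Hamp with Id1 (r 0.27) was -0.0029 to 0.503 without 1 library. Alb with Serpina1c, with a larger r of 0.57, was -0.0527 without the 2 farthest. The cause was not tested in these cases. Counting error does not limit the CVs, while 10 libraries limit the correlations.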
